A study of Arabidopsis thaliana with 12 samples.

Results

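Cytochrome P450 genes were examined in seedlings of Arabidopsis thaliana whose plastids were blocked in translation by lincomycin. The set held 22 genes, chosen by their symbol: a probe set of the Affymetrix ATH1 array had to name a single gene, written as CYP with a family number, subfamily letters and a gene number. They are 22 of 13513 probe sets that named a single gene and of 22746 tested. Each gene had 1 such probe set, so no choice between probe sets was needed. The RefSeq gene table for assembly TAIR10.1 holds 225 symbols of this form, and the P450 genes outside the 22 are not analysed here.

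The study crossed 3 genotypes with 2 media in 6 groups of 2 arrays (12 arrays). These were gun1-1 with and without lincomycin, abi4-102 with and without lincomycin, and Col-0, the wild type, with and without lincomycin. The labels give the Col-0 ecotype for every group. The gun1-1 seedlings carry a mutant allele of a plastid protein that takes part in signalling from the plastid to the nucleus, the abi4-102 seedlings a mutant allele of a transcription factor, and each mutant was represented by 1 allele. Whole seedlings were grown for 5 days at 21 °C, under light/dark cycles at 20 µmol, on half-strength medium with 1% sucrose, and the drug was given at 220 µg/ml by the treatment protocol and 200 µg/ml by the source name. Nothing in the labels says that the 2 arrays of a group came from separate cultures, so a p-value here reflects how far these samples spread, which could be technical. As the RNA came from whole seedlings, fewer cells of a type and less RNA per cell cannot be told apart.

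P450 enzymes are haem proteins that insert oxygen from air into small molecules, with electrons passed on by a reductase. In plants most sit on the endoplasmic reticulum and act in hormone metabolism, in making lignin, cutin, sterols and glucosinolates, and in defence chemistry, and a few act in plastids. The CYP71B subfamily is one of the largest in Arabidopsis, much of it lies in tandem copies, and the substrates of many of its members are unknown.

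Of the 22 genes, 18 belong to CYP71B. The other 4 are CYP79A2, CYP84A4, CYP78A9 and CYP51G2. RefSeq lists 20 as protein-coding, and CYP71B27 and CYP51G2 as transcribed pseudogenes. The genes were dim on the whole: the mean of 15 lay below the median of all probe sets and that of 9 in the lowest 20%, and differences between dim probe sets are shrunk by the authors' processing (RMA). The brightest probe set was that of CYP71B6, at the 91.1st percentile (mean log2 value 8.67), followed by CYP71B26 at 80.4 (7.59). Brightness depends on the probe as well as on the transcript, so it does not rank the genes by transcript level. Values ran over only 0.18 log2 units across the 12 arrays for CYP71B31, but over 2.34 for CYP71B23, 1.37 for CYP71B37 and 1.20 for CYP71B6. CYP71B23 and CYP71B6 also varied most within groups, with a pooled within-group SD of 0.523 and 0.423, at the 98.9th and 98th percentile of all probe sets. The median SD of the 22 genes was 0.147, against 0.141 over all probe sets.

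**Figure D1:**
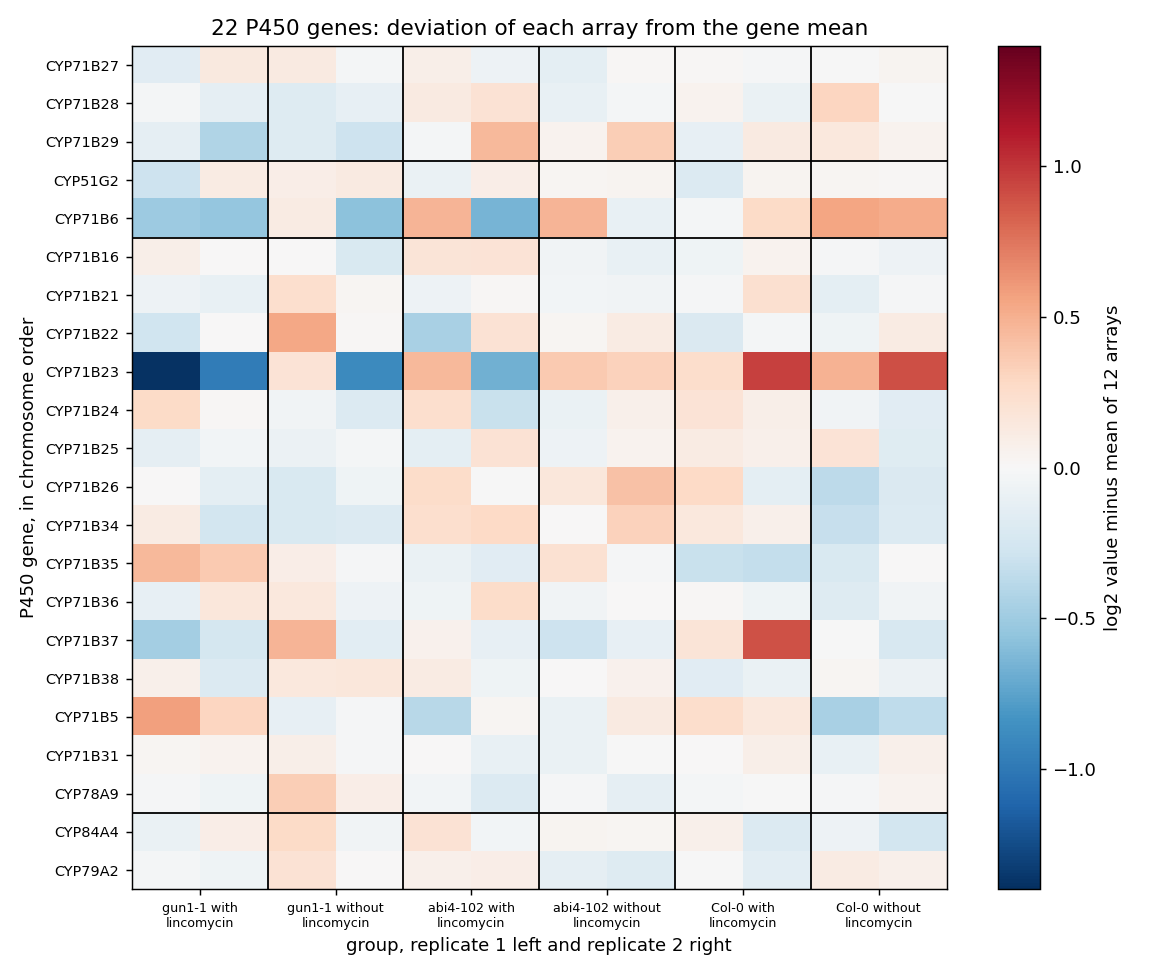
Deviation of each array (columns, 2 per group) from the mean of 12 arrays for each P450 gene (rows, in chromosome order, black lines between chromosomes), in log2 units by colour. CYP71B23 has the widest range (2.34), and it is lowest in gun1-1 with lincomycin; most rows stay pale.

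The first question was how the P450 genes respond to lincomycin in each genotype. Only CYP71B5, a gene of unassigned function, passed, and it passed in Col-0. With lincomycin its log2 values were 6.51 and 6.41 in Col-0, against 5.81 and 5.91 without the drug. Both treated arrays lay above both untreated ones, and the gene rose 1.52-fold (log2 difference 0.60, SE 0.15, 95% interval 0.26 to 0.94, limma adjusted p = 0.021). The threshold for a call was an adjusted p under 0.05, by Benjamini and Hochberg's method over all 22746 probe sets. The call was lost when any of the 4 Col-0 arrays was left out: adjusted p was 0.104 and 0.0566 without replicates 1 and 2 with lincomycin, and 0.125 and 0.0785 without replicates 1 and 2 without it. In gun1-1 the values of CYP71B5 were 6.84 and 6.56 with lincomycin and 6.15 and 6.25 without, again with no overlap (log2 difference 0.50, SE 0.15, adjusted p = 0.0638, not called). Leaving out 1 gun1-1 array gave 0.36 to 0.64 (adjusted p = 0.0713 to 0.263), with the lowest value without gun1-1 with lincomycin replicate 1, and the difference was called only without either abi4-102 array with lincomycin (adjusted p = 0.0394). In abi4-102 the values of CYP71B5 were 5.88 and 6.29 with lincomycin and 6.17 and 6.39 without, and these groups overlapped (-0.19, SE 0.15, adjusted p = 0.478).

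Lincomycin changed 1 of the 22 P450 genes in Col-0, against 17.4% of all probe sets. Which gene passed in Col-0 depended on single arrays: CYP71B37 (0.66, SE 0.24, adjusted p = 0.0878) was called in place of CYP71B5 without Col-0 with lincomycin replicate 1 (1.01, adjusted p = 0.0194), and its difference was 0.30 without replicate 2 of that group (adjusted p = 0.499). It changed 0 of 22 in gun1-1, where 10.7% of all probe sets passed in limma and 3 P450 genes had an unadjusted p under 0.05 (26.3% of all probe sets did). It changed 0 of 22 in abi4-102, where 13.2% passed and 1 P450 gene had an unadjusted p under 0.05 (26.9% of all). With all 12 arrays no P450 gene differed by 2-fold or more in any genotype, against 2.33% of all probe sets in gun1-1, 2.4% in abi4-102 and 4.23% in Col-0. Treated and untreated arrays did not overlap for 10 of 22 P450 genes in gun1-1, 5 in abi4-102 and 9 in Col-0, against 53.2%, 56% and 58.2% of all probe sets. The median log2 difference of the 22 genes was -0.06 in gun1-1, 0.01 in abi4-102 and 0.01 in Col-0, beside -0.011, 0.021 and 0.022 over all probe sets. The median size of the difference, sign aside, was 0.17, 0.10 and 0.12, against 0.19, 0.18 and 0.18 over all probe sets. These small values do not show that the genes are unaffected, since the half-width of the 95% interval ran from 0.24 to 0.89 log2 units. In Col-0 the interval lay within a 2-fold change either way for 20 of 22 genes, the exceptions being CYP71B6 and CYP71B37.

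**Figure D2:**
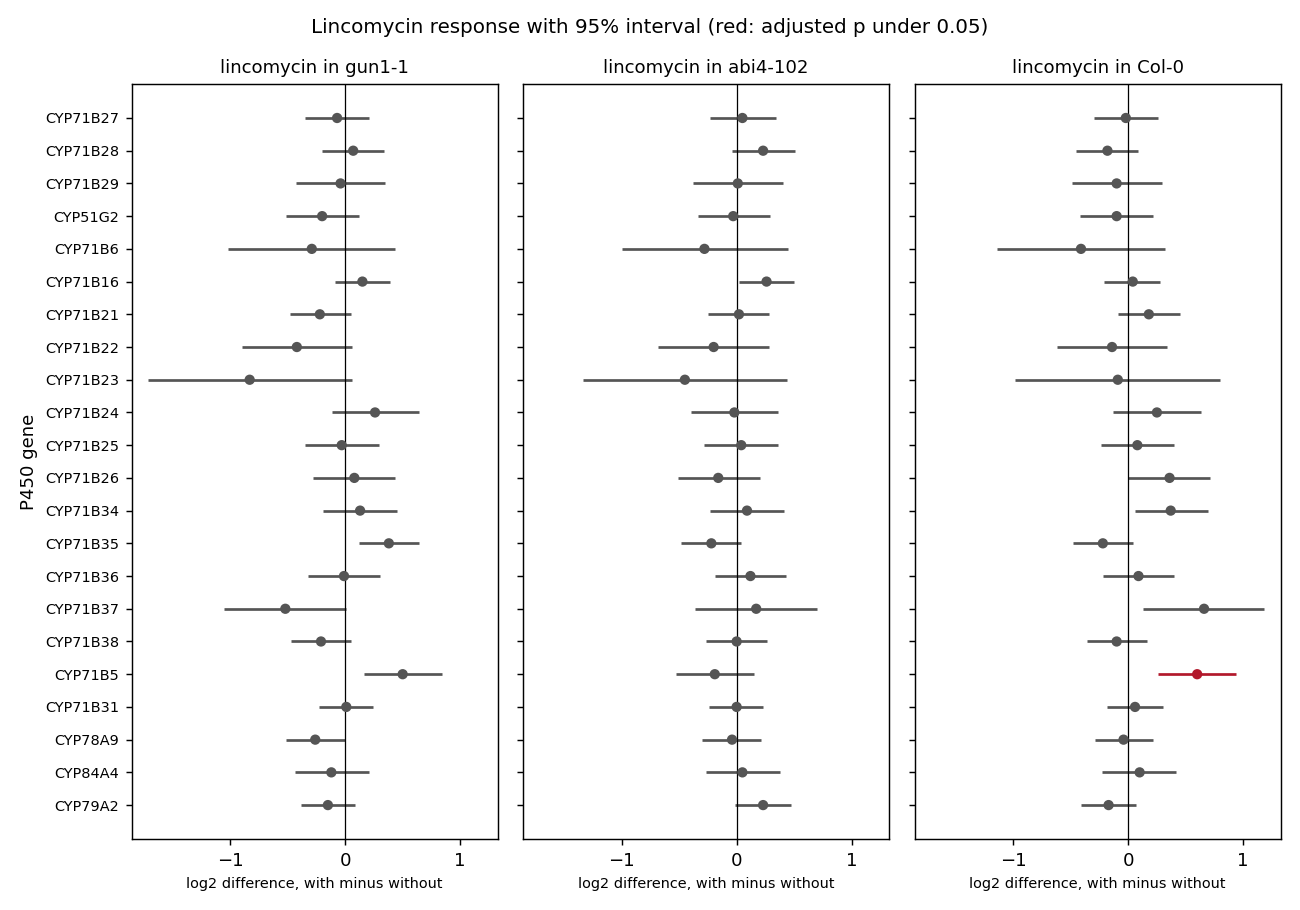
Lincomycin response of the 22 P450 genes (rows) in gun1-1, abi4-102 and Col-0, as log2 difference with minus without lincomycin (points) with 95% interval (bars). CYP71B5 in Col-0 (0.60) is the only point past the threshold, and CYP71B23 and CYP71B6 have the widest bars.

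Taken over the 3 genotypes together, a comparison chosen after the values were seen, CYP71B5 alone was called (0.30, SE 0.09, adjusted p = 0.0238), against 32.3% of all probe sets. This call was lost on leaving out any 1 of 6 arrays: gun1-1 with lincomycin replicate 1, gun1-1 without lincomycin replicate 1, abi4-102 with lincomycin replicate 2, abi4-102 without lincomycin replicate 1, and replicate 1 of Col-0 with and of Col-0 without lincomycin (adjusted p = 0.0536 to 0.0699). Further genes passed without single arrays: CYP71B6 and CYP71B23 beside CYP71B5 without abi4-102 with lincomycin replicate 1, CYP71B22 and CYP71B24 without replicate 2 of that group, CYP71B34 without gun1-1 with lincomycin replicate 2, and CYP71B23 without gun1-1 without lincomycin replicate 2. The genotypes' responses, which share no arrays, had the same sign for 15 of 22 P450 genes between gun1-1 and Col-0, for 14 between abi4-102 and Col-0 and for 9 between gun1-1 and abi4-102. Over all probe sets the shares were 64.8%, 69.9% and 70.7%. Across the 22 genes the responses correlated at r = 0.24, 0.18 and 0.24 in the same order (0.21, 0.13 and -0.1 without CYP71B23), against 0.52, 0.75 and 0.63 across all probe sets.

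The P450 genes with an assigned reaction did not pass in any comparison with all 12 arrays. CYP71B6 converts indole-3-acetonitrile in the metabolism of indole defence compounds. Its log2 values in Col-0 were 8.64 and 8.94 with lincomycin and 9.22 and 9.19 without (-0.41, SE 0.33, adjusted p = 0.484). In gun1-1 they were 8.16 and 8.13 with lincomycin and 8.78 and 8.10 without (-0.29, adjusted p = 0.628), and in abi4-102 9.14 and 8.02 with and 9.14 and 8.57 without (-0.28, adjusted p = 0.65). The treated arrays lay below the untreated ones in Col-0 alone, and 1 treated abi4-102 array was 1.12 log2 units from its replicate.

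CYP79A2, which turns phenylalanine into its aldoxime for benzyl glucosinolate, stayed between 3.22 and 3.60 on all 12 arrays. Its responses were -0.15 in gun1-1, 0.23 in abi4-102 and -0.17 in Col-0 (SE 0.11 each). CYP84A4, of the arabidopyrone pathway that branches from phenylpropanoids, lay between 4.93 and 5.45, with responses of -0.12, 0.05 and 0.10 (SE 0.15). CYP78A9, whose overexpression enlarges fruits and seeds, ran from 4.34 to 4.88 and had responses of -0.26, -0.04 and -0.04 (SE 0.12). CYP71B31, which oxidises the monoterpene alcohol linalool in flowers, lay between 2.89 and 3.07. The pseudogene CYP51G2, a relative of the sterol demethylase gene, ran from 3.17 to 3.59. The dim remainder, CYP71B16, CYP71B21, CYP71B24, CYP71B25, CYP71B27, CYP71B36 and CYP71B38, kept between 2.63 (CYP71B24) and 3.99 (CYP71B38), and no one of them ranged over more than 0.58 log2 units.

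Next came the mutants against Col-0 on lincomycin. In gun1-1 CYP71B35 rose and CYP71B23 and CYP71B37 fell; all 3 are genes of unassigned function in 1 cluster on chromosome 3. CYP71B35 had log2 values of 4.78 and 4.69 in gun1-1 with lincomycin, against 4.01 and 3.99 in Col-0 with lincomycin. The groups did not overlap, and the gene was 1.67-fold higher in gun1-1 (0.74, SE 0.12, 95% interval 0.47 to 1.00, adjusted p = 0.00267). Its probe set was below the median in brightness, at the 35.5th percentile (mean log2 value 4.32). For CYP71B35 the 2 gun1-1 arrays with lincomycin were the highest and the 2 Col-0 arrays with lincomycin the lowest of all 12. It was called in 12 of 12 fits that left out 1 array, with adjusted p from 0.00381 to 0.02.

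CYP71B23 had log2 values of 4.79 and 5.19 in gun1-1 with lincomycin, against 6.42 and 7.13 in Col-0 with lincomycin. It fell 3.44-fold, the widest difference among the 22 genes (-1.78, SE 0.40, 95% interval -2.67 to -0.90, adjusted p = 0.0167). The call was lost without gun1-1 with lincomycin replicate 1 or 2 (adjusted p = 0.0904 and 0.0503), without Col-0 with lincomycin replicate 2 (0.109), and in a robust fit with a trend on intensity (0.059). CYP71B37, whose probe set lay at the 33.1st percentile, had values of 3.67 and 3.90 in gun1-1, against 4.33 and 5.04 in Col-0 with lincomycin. The groups did not overlap, but Col-0 replicate 1 (4.33) was nearer to a gun1-1 array (3.90) than to its own replicate (-0.90, SE 0.24, 1.86-fold lower, adjusted p = 0.0371). Without Col-0 with lincomycin replicate 2 the difference was -0.54 (adjusted p = 0.219). The call of CYP71B37 was made in 3 of 12 fits that left out 1 array, those without either gun1-1 array without lincomycin or without Col-0 with lincomycin replicate 1. It was also lost in a fit of only the 2 groups compared (adjusted p = 0.106) and with each array centred on its median (-0.85, adjusted p = 0.0534).

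Over the set, 3 of 22 P450 genes (13.6%) passed between gun1-1 and Col-0 on lincomycin, and 10% of all probe sets did, so the share is near the background. By direction, 1 gene was higher and 2 were lower, against 5.98% and 4.04% of all probe sets. Without either gun1-1 array with lincomycin or Col-0 with lincomycin replicate 2, the count was 1, CYP71B35. The arrays of the 2 groups did not overlap for 8 of 22 genes (36.4%), against 47.7% of all probe sets. The median difference was -0.02, beside -0.027 over all probe sets. CYP71B6 had 8.16 and 8.13 in gun1-1 and 8.64 and 8.94 in Col-0 with lincomycin, which did not overlap, and did not pass (-0.64, SE 0.33, adjusted p = 0.278).

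**Figure D3:**
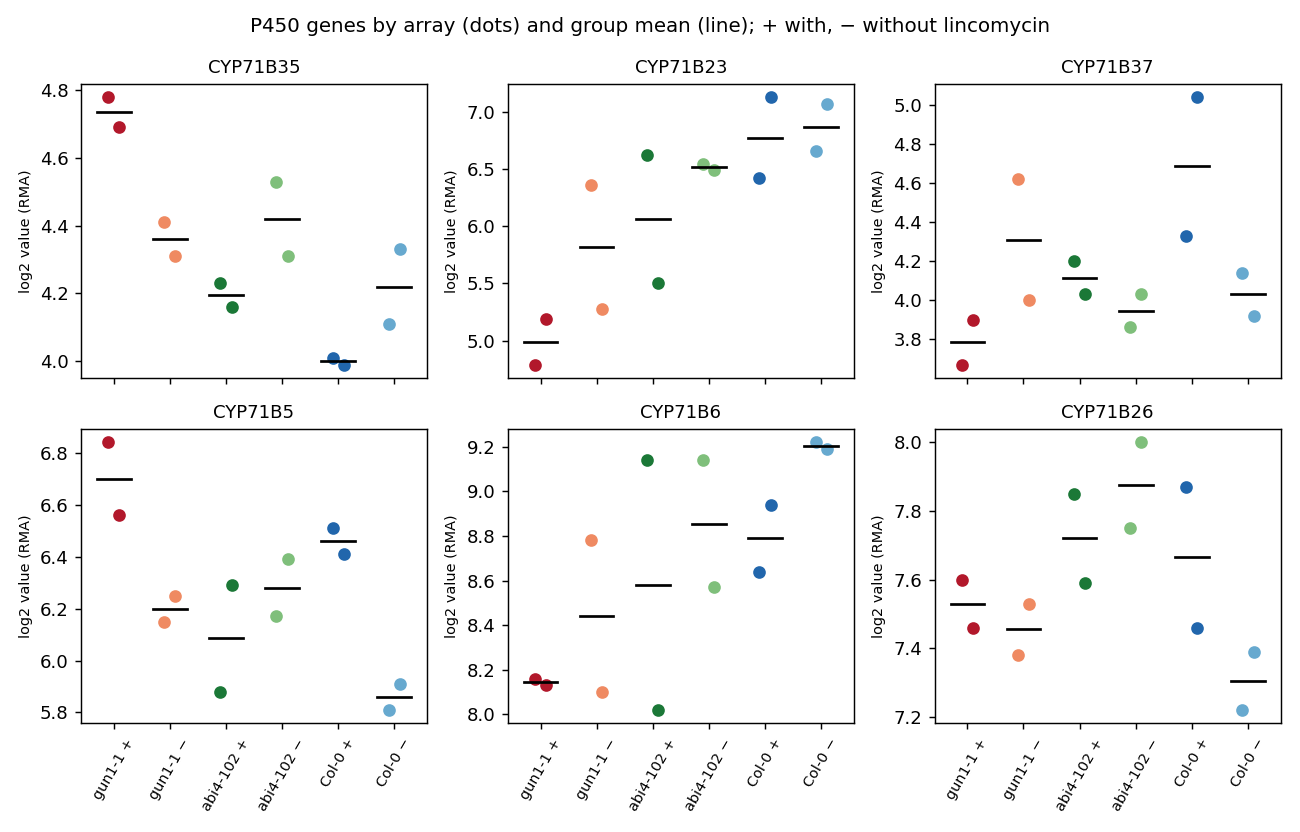
Log2 values (RMA) of 6 P450 genes on each array (dots), by group (+ with, − without lincomycin), with group means (lines); each panel has its own axis. CYP71B35 is highest and CYP71B23 lowest in gun1-1 with lincomycin, while CYP71B6 and CYP71B23 spread widely within several groups.

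Whether gun1-1 changed the response to lincomycin itself was tested as a difference of responses. In limma 0 of 22 P450 genes passed, with 3 at an unadjusted p under 0.05, against 4.38% of all probe sets called and 16.4% at an unadjusted p under 0.05. CYP71B35 and CYP71B37 came nearest. For CYP71B35 the response was 0.38 in gun1-1 (4.78 and 4.69 with, 4.41 and 4.31 without lincomycin) and -0.22 in Col-0 (4.01 and 3.99 with, 4.11 and 4.33 without), a difference of 0.60 (SE 0.17, adjusted p = 0.0801). For CYP71B37 it was -0.52 in gun1-1 (3.67 and 3.90 with, 4.62 and 4.0 without) and 0.66 in Col-0 (4.33 and 5.04 with, 4.14 and 3.92 without), a difference of -1.18 (SE 0.34, adjusted p = 0.0866).

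In both genes the treated and untreated arrays separated fully within each genotype and in opposite directions. This held for 2 of 22 P450 genes (9.09%) and for 7.09% of all probe sets. The difference of CYP71B37 was called in 2 of 12 fits that left out 1 array, those without gun1-1 without lincomycin replicate 2 (-1.49, adjusted p = 0.0385) and without Col-0 with lincomycin replicate 1 (-1.53, adjusted p = 0.0263). Leaving out the other array of the same groups gave smaller differences, -0.87 without gun1-1 without lincomycin replicate 1 (adjusted p = 0.256) and -0.82 without Col-0 with lincomycin replicate 2 (adjusted p = 0.209). For CYP71B5 the responses in gun1-1 and Col-0 differed by -0.10, with a 95% interval from -0.58 to 0.38. For CYP71B23 the difference was -0.74 (SE 0.57, adjusted p = 0.594). The third gene at an unadjusted p under 0.05 was the dim CYP71B21 (-0.40).

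Without lincomycin 0 of 22 P450 genes passed between gun1-1 and Col-0 in limma, and 0.022% of all probe sets did. At an unadjusted p under 0.05 there were 4 P450 genes, against 6.74% of all probe sets: CYP71B23, CYP71B6 and CYP71B28 had lower values in gun1-1 and CYP71B5 higher ones. CYP71B23 had 6.36 and 5.28 in gun1-1 and 6.66 and 7.07 in Col-0 (-1.05, SE 0.40, adjusted p = 0.659). CYP71B6 had 8.78 and 8.10 in gun1-1 and 9.22 and 9.19 in Col-0 (-0.76, SE 0.33, adjusted p = 0.722). Neither pair of groups overlapped, and in both genes replicate 1 of gun1-1 lay nearer to Col-0 than replicate 2. In all, 10 of 22 P450 genes had groups that did not overlap, against 40.6% of all probe sets.

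The comparisons with and without lincomycin share no arrays. Their differences between gun1-1 and Col-0 had the same sign for 12 of 22 P450 genes, against 50.7% of all probe sets. They correlated at r = 0.69 across the 22 genes and 0.35 without CYP71B23, against 0.13 across all probe sets. Averaged over both media, a comparison chosen after the values were seen, CYP71B23 was lower in gun1-1 (-1.42, SE 0.28, adjusted p = 0.0172) and CYP71B35 higher (0.44, SE 0.08, adjusted p = 0.0137). For CYP71B35 the difference was 0.74 with lincomycin but 0.14 without it (SE 0.12, adjusted p = 0.927), where the groups overlapped. CYP71B6 did not pass (-0.70, SE 0.23, adjusted p = 0.125); it was called in a fit of only the 2 genotypes compared (adjusted p = 0.0353) and without either abi4-102 array with lincomycin (0.0414), and leaving out any other array gave adjusted p from 0.0804 to 0.328. The calls over both media are 2 of 22 genes, against 5.1% of all probe sets. The call of CYP71B23 was lost without gun1-1 with lincomycin replicate 1, gun1-1 without lincomycin replicate 2, or replicate 2 of either Col-0 group (adjusted p = 0.0572, 0.0526, 0.0548 and 0.0875), and that of CYP71B35 without Col-0 without lincomycin replicate 1 (0.0664).

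Between its outermost measured genes, CYP71B16 (AT3G26150) and CYP71B37 (AT3G26330), the cluster on chromosome 3 spans 20 genes in the order of RefSeq. Where the cluster itself begins and ends was not determined. In this count, which keeps protein-coding genes only, 16 carry a P450 symbol, and 11 are among the 22 measured here. A further probe set names CYP71B19 and CYP71B20 of the cluster together and was not read. The 3 genes called between gun1-1 and Col-0 on lincomycin all lie in it, at places 7 (CYP71B23), 18 (CYP71B35) and 20 (CYP71B37), and the last pair moved in opposite directions with CYP71B36 between them.

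The measured next neighbours did not pass. The genes that follow CYP71B23 and CYP71B37 in this order were outside the set examined here and were not read. CYP71B22, beside CYP71B23, differed by -0.03 between gun1-1 and Col-0 on lincomycin (SE 0.22), where CYP71B23 differed by -1.78. CYP71B36 differed by 0.04 (SE 0.14) and CYP71B34, on the other side of CYP71B35, by -0.18 (SE 0.14). The genes of the cluster are similar copies, and how far their probe sets take up each other's transcripts was not tested.

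**Figure D4:**
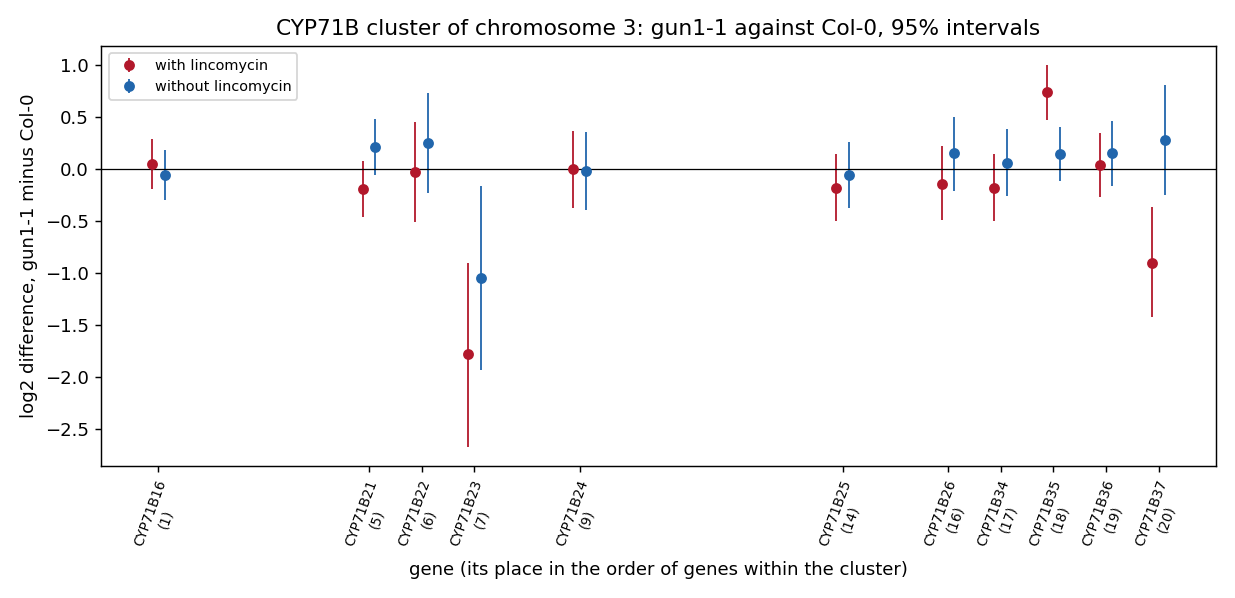
Log2 difference between gun1-1 and Col-0 with 95% interval for the 11 measured genes of the chromosome 3 cluster, placed by their order among genes, on media with (red) and without (blue) lincomycin. CYP71B23 is below 0 on both media (-1.78 and -1.05), and CYP71B35 (0.74) and CYP71B37 (-0.90) stand on opposite sides of 0 with lincomycin.

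Elsewhere, CYP71B28 and CYP71B29 are next to each other on chromosome 1 (AT1G13090 and AT1G13100). Both had lower means in gun1-1 than in Col-0 without lincomycin, with log2 differences of -0.30 (SE 0.12) and -0.33 (SE 0.18) that did not pass. CYP71B5 and CYP71B31 (AT3G53280 and AT3G53300) are near each other on chromosome 3, and their lincomycin responses in Col-0 were 0.06 for CYP71B31 (SE 0.11, not called) and 0.60 for CYP71B5 (SE 0.15). That difference between genes was not tested.

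In abi4-102 no P450 gene passed in limma against Col-0, with or without lincomycin. With lincomycin the count was 0 of 22 (0.457% of all probe sets called), with 2 P450 genes at an unadjusted p under 0.05 against 11% of all probe sets. Without lincomycin it was 0 of 22 (1.68% called), with 4 against 14.7%. For the difference of the lincomycin response from Col-0 it was 0 of 22, as for all probe sets (0%), with 4 against 9.8% at an unadjusted p under 0.05. Groups did not overlap for 10 of 22 genes with lincomycin and for 10 without, against 37.9% and 51.1% of all probe sets. Averaged over both media, which was also chosen after the values were seen, it was 0 of 22 (2.29% of all called), with 3 against 15% at an unadjusted p under 0.05.

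The nearest to the threshold was CYP71B26, the second brightest of the set, without lincomycin. It had 7.75 and 8.0 in abi4-102, against 7.22 and 7.39 in Col-0, with no overlap (0.57, SE 0.16, adjusted p = 0.121). Its neighbour CYP71B34 had 6.78 and 7.10 in abi4-102 and 6.45 and 6.58 in Col-0 (0.43, SE 0.14, adjusted p = 0.187), and CYP71B5 differed by 0.42 (SE 0.15, adjusted p = 0.226). The same 3 genes had higher values with lincomycin in Col-0, by 0.36 for CYP71B26, 0.37 for CYP71B34 and 0.60 for CYP71B5; both comparisons use the 2 Col-0 arrays without lincomycin. For CYP71B5 the response in abi4-102 was lower than in Col-0 by 0.79 log2 units (SE 0.22, 95% interval of the difference -1.27 to -0.31, unadjusted p = 0.00409, adjusted p = 0.281), which did not pass. CYP79A2 and CYP71B28 had differences of response of 0.39 and 0.41 that did not pass either. On lincomycin CYP71B37 had 4.20 and 4.03 in abi4-102 and 4.33 and 5.04 in Col-0 (-0.57, SE 0.24, adjusted p = 0.403).

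Few genes of the pathways that P450 enzymes serve had a probe set of their own: 19 of 138 listed, including tissue markers. AT3G02280, which encodes a flavodoxin-like reductase, was the only one measured of 9 genes listed as electron donors or cytochrome b5. Whether it serves P450 enzymes was not tested. AT3G02280 rose with lincomycin in abi4-102 (1.74-fold, adjusted p = 0.00499) and in Col-0 (1.41-fold, adjusted p = 0.0337), and its difference in gun1-1 was 0.34 (SE 0.14, adjusted p = 0.155). Of 3 glucosinolate genes outside the P450 family, UGT74B1, which glucosylates the thiohydroximate precursor, fell in gun1-1 (1.69-fold, adjusted p = 0.014) and abi4-102 (1.92-fold, adjusted p = 0.00377), and differed by -0.48 in Col-0 (adjusted p = 0.0623). BCAT4, of methionine chain elongation, and AOP3, of side-chain modification, passed for lincomycin in no genotype. Over both media, the average added after the values were seen, BCAT4 was 2.55-fold higher in gun1-1 than in Col-0 (1.35, SE 0.27, adjusted p = 0.0175). On neither medium alone did BCAT4 pass (0.85 with lincomycin, adjusted p = 0.214, and 1.85 without, adjusted p = 0.308). WSD1, a wax ester synthase gene and the only one of 12 cutin and wax genes measured, fell in gun1-1 (2.79-fold), abi4-102 (1.60-fold) and Col-0 (1.87-fold). HCT of the phenylpropanoid pathway fell 1.39-fold in gun1-1 (adjusted p = 0.0265). It differed by -0.05 in abi4-102 and -0.26 in Col-0, which did not pass. The gibberellin receptor gene GID1A rose 1.73-fold in Col-0 (adjusted p = 0.0229). It differed by 0.57 in gun1-1 and 0.41 in abi4-102, which did not pass. For neither gene did the response of a mutant pass as different from that of Col-0. The carotenoid cyclase gene LYC fell 1.29-fold in abi4-102 and 1.43-fold in Col-0, and passed as higher in gun1-1 than in Col-0 on lincomycin (0.41, adjusted p = 0.031). Its response in gun1-1 was -0.08, and the difference of that response from Col-0 did not pass (0.44, adjusted p = 0.15).

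Nuclear photosynthesis genes, listed as markers of green tissue, and root genes were read beside these results. As fewer cells and less RNA per cell cannot be told apart, their values do not measure the amount of a tissue. Of 30 listed nuclear photosynthesis genes, 9 were measured. Their mean log2 value lay between 10.77 and 10.82 in gun1-1 with lincomycin, against 9.75 and 9.80 in Col-0 with lincomycin. Of these 9 genes, 8 passed as higher in gun1-1 than in Col-0 on lincomycin, against 5.98% of all probe sets. Without lincomycin they lay between 11.12 and 11.22 in gun1-1, 10.90 and 10.96 in abi4-102, and 11.08 and 11.14 in Col-0. With lincomycin all 9 had lower means in each genotype, and 3 passed as lower in gun1-1, 9 in abi4-102 and 8 in Col-0. Of all probe sets 10.7%, 13.2% and 17.4% passed in these genotypes, in either direction. The mean log2 value of the 2 measured root genes of 4 listed, EXPA7 and EXPA18, was 5.0 and 6.14 on the arrays of gun1-1 with lincomycin and 4.96 and 5.37 on those of Col-0 with lincomycin, and neither gene passed between these groups. EXPA18 rose 2.26-fold with lincomycin in gun1-1 (adjusted p = 0.035), and differed by 0.16 in abi4-102 and 0.38 in Col-0, which did not pass. The 2 treated gun1-1 arrays behind that rise had unlike root gene means (5.0 and 6.14), and no fit without single arrays is given for it. The part of green or root tissue in the P450 differences was not tested.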

How the data were processed

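Values were used as deposited, on a log2 scale, after the authors ran RMA, which the submitters' processing notes name. Its version is not given in the sources used here. RMA corrects background, makes the arrays' distributions alike and summarises probes, so a change in total mRNA would not be seen. Array medians were 5.44 to 5.52, and replicates correlated at r = 0.9903 to 0.9963 across probe sets, which are not independent. The number of arrays limits the precision.

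Groups came from the sample titles. For replicate 2 of gun1-1 without lincomycin, the genotype tag names every genotype of the study, so the title decided. The mutated genes are not analysed here, so they give no check of the labels. Of 22810 probe sets 64 controls were left out. The other 22746 went into a limma fit (limma 3.58.1, R 4.3.3, 6 group means, 6 residual degrees of freedom, two-sided, Benjamini-Hochberg within a comparison). SE and 95% intervals are those of the moderated test. There were 9 comparisons, and 3 averages were added after the values were seen.

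The P450 set, the gene lists and the rule for named genes were chosen with earlier results of these data known. The rule named called genes (up to 10 each way in a comparison), the 5 brightest, members of role lists and up to 3 called genes of each list outside the family; other genes were named after their values were seen. Of 13 role lists with 115 P450 genes, 5 lists had a measured member (6 genes), so most roles could not be read. No gene of the abscisic acid, brassinosteroid, jasmonate or seed storage lists outside the P450 family was measured. Gene order came from RefSeq TAIR10.1. Figures used matplotlib 3.10.9. Alternatives were a replicate block, fitting the compared groups alone, a robust fit with a trend on intensity, median centring, keeping the upper 60% of probe sets, a 2-fold minimum, and leaving out each array. The limma script was tested on simulated data.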

Additional observations from a re-analysis of the deposited data

How the results depend on the processing

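No value of a called P450 gene changed sign under the alternatives run. With a minimum log2 fold change of 1, 0 P450 genes were called for lincomycin in Col-0 (3.97% of all probe sets) and 0 over 3 genotypes (2.04%). For gun1-1 against Col-0 there was 1 with lincomycin (CYP71B23, 2.39% of all probe sets) and 1 over both media (CYP71B23, 0.418%). Keeping the upper 60% of probe sets left 8 of the 22 genes. CYP71B35 and CYP71B37 were too dim to be kept, so they were not tested there. For gun1-1 against Col-0 there was 1 call with lincomycin and 1 over both media (CYP71B23 each). Of the probe sets kept, 17.3% and 9.31% passed. In a robust fit with a trend on intensity there were 2 calls for lincomycin over 3 genotypes (CYP71B16 and CYP71B5), against 32.3% of all probe sets. The same fit gave 1 call for gun1-1 over both media (CYP71B35), against 5.43%. Leaving out 1 array at a time gave 0 to 1 calls for lincomycin in gun1-1 and in Col-0 and for the difference of their responses, 1 to 3 for gun1-1 against Col-0 with lincomycin and over both media, 0 to 3 for lincomycin over 3 genotypes, and 0 in the other 6 comparisons. A lone array left in a group was assumed to vary like the other groups. The causes were not tested, beyond fewer genes or arrays where the setting itself removes them.

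With the replicate number as a block, CYP71B37 was not called for gun1-1 against Col-0 with lincomycin (adjusted p = 0.0524); the counts stayed within 1.5 times in all comparisons. Replicate differences of 2 groups correlated at -0.28 to 0.28 across probe sets, over 0.1 in 3 of 15 pairs of groups. Whether the numbers pair some of the arrays cannot be settled from these values. Reading the dimmest probe set of a gene could not be run, since 0 genes had several. Centring moved the median of all probe sets by at most 0.047.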
